A study of Homo sapiens with 12 samples.

Results

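Lysyl oxidases and collagen hydroxylases were followed in hypoxic U-87 MG cells after loss of HIF1α, HIF2α or both. The 10 genes were LOX, LOXL1, LOXL2, LOXL3 and LOXL4 (lysyl oxidases), P4HA1, P4HA2 and P4HA3 (alpha subunits of prolyl 4-hydroxylase), and PLOD1 and PLOD2 (lysyl hydroxylases). They were chosen by gene family and by what their TPM values had already shown in these same libraries, so their fold changes and adjusted p-values are given as a description. All 10 were found among the 20263 genes of the expression table.

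U-87 MG is an established human glioblastoma line. The mRNA of 12 libraries was sequenced in 4 groups of 3: cells with an empty vector (vector), with HIF1α knocked out (HIF1α-ko), with HIF2α knocked out (HIF2α-ko) and with both knocked out (HIF1α/2α-ko). According to the design text all groups were kept at 1% O2 for 72 hours, although the study's methods give a shorter hypoxic culture for mRNA detection. No library from cells in normal oxygen was analysed here, so the comparisons show what loss of a HIFα subunit changed under hypoxia, and not the response to hypoxia itself. How many clones each knockout came from is not given, and nothing says that the 3 libraries of a group came from separate cultures. The p-values therefore measure only the spread between these libraries, which may be technical.

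Collagen is hydroxylated and cross-linked in steps. Inside the endoplasmic reticulum, prolyl 4-hydroxylases hydroxylate proline residues, which stabilises the collagen triple helix, and lysyl hydroxylases hydroxylate lysine residues. Outside the cell, the copper-dependent lysyl oxidases convert lysine and hydroxylysine to aldehydes that join into cross-links and stiffen the matrix. Both kinds of hydroxylase need oxygen, iron and 2-oxoglutarate, as do the HIF prolyl hydroxylases, and several of these genes are known targets of the HIFs, the transcription factors that accumulate when oxygen is low.

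HIFs bind DNA at short cores spelled ACGTG or GCGTG. Both spellings were counted on both strands, each searched separately, in the 250 bases before each RefSeq start (GRCh38.p14). Of 35116 such windows in RefSeq, 18.5% held ACGTG, 32.2% held GCGTG and 43.2% held either. A window was found for 8 of 9 searched members; LOXL2 was not searched and P4HA3 was not matched. The stretches of 4 members are printed 5′ to 3′ on the gene's strand with the matches in capitals: LOX, the member with the largest fall in HIF1α/2α-ko against vector, PLOD1 and PLOD2, whose levels parted in HIF1α-ko, and P4HA1, which passed the test in no comparison. For LOX and PLOD1 the stretch ends before the first base of the window that GENCODE annotates as untranslated exon of the gene. The window of PLOD2 held no such base and is printed whole. By the gene limits in GENCODE the stretch of LOX lies before the gene, while those of PLOD1 and PLOD2 lie inside it. For P4HA1, whose match lies in such an exon, only 25 bases around the match are shown. LOX is shown at the most upstream of its 3 RefSeq starts (chr5:122078361-122078509, minus strand), PLOD1 at chr1:11934467-11934693 (plus strand), PLOD2 at chr3:146161185-146161434 (minus strand) and P4HA1 at chr10:73096938-73096962 (minus strand).
LOX: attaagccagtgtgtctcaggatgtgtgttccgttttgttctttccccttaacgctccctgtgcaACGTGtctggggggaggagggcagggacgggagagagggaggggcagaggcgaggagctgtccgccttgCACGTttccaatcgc
PLOD1: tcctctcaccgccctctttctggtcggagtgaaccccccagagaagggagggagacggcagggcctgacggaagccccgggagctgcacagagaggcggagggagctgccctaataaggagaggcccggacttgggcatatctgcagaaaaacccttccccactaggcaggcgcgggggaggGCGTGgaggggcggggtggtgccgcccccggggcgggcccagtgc
PLOD2: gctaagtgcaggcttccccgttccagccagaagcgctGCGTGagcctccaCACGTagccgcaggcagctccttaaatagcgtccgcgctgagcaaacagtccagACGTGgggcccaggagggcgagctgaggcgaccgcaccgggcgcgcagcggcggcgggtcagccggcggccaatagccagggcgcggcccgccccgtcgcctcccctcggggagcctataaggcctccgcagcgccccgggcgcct
P4HA1: tgatcgagctCACGTagcgagggct

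The whole window at the most upstream start of LOX held 4 matches to ACGTG, whose first bases lay 185, 116, 98 and 42 bases before the start. The windows of its 2 other starts overlap each other and held the same 1 ACGTG and 1 GCGTG. PLOD2 held ACGTG at 200 and 146 bases and GCGTG at 213 bases before its start. PLOD1 held no ACGTG but GCGTG at 68 and 25 bases, and P4HA1 held ACGTG at 86 bases. The windows of LOXL1, LOXL4 and P4HA2 held neither spelling, and LOXL3 held GCGTG in 1 of its windows. A match is only a stretch of letters, and the libraries do not show which sites were bound.

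The libraries were first checked against their labels. HIF1A mRNA was 110.0 to 151 TPM in vector and 38.6 to 57.3 TPM in HIF1α-ko (log2 fold change −1.34, limma adjusted p = 0.000851), but 67.8 to 89.2 TPM in HIF1α/2α-ko (−0.71, adjusted p = 0.0104). HIF2α-ko, which keeps the HIF1α gene by its label, held 76.1 to 108 TPM of HIF1A and overlapped HIF1α/2α-ko (−0.19, adjusted p = 0.453), so HIF1A mRNA did not separate these groups, and what HIF1α loss adds to HIF2α loss rests on the labels. EPAS1, which encodes HIF2α, was 286 to 346 TPM in vector, 87.6 to 118 TPM in HIF2α-ko and 101 to 130 TPM in HIF1α/2α-ko. mRNA of a cut gene can persist without functional protein, and protein was not measured in these files. VIM (5635 to 14690 TPM), CD44 (399 to 1412 TPM) and TNC (676 to 902 TPM) were high in all 12 libraries, but NES was low (2.64 to 6.17 TPM). CDKN2A and CDKN2B, which are deleted in U-87 MG, were at 0 in all 12. Of the glial markers, GFAP did not exceed 0.639 TPM, and OLIG2 ran from 0.884 to 19.2 TPM. The 5 leukocyte, endothelial and epithelial markers summed to at most 5.56 TPM in any library, whereas the 2 stromal markers PDGFRB and ACTA2 summed to 117 to 199 TPM, in ranges that overlapped between all groups. Their part in the results was not tested. Replicate 1 correlated less with replicates 2 and 3 than these did with each other in all 4 groups, most of all in vector (0.968 and 0.966 against 0.989 across genes) and then in HIF1α/2α-ko (at most 0.977 against 0.992). Values that rest on vector replicate 1, or on the first replicates together, are given without them below. More genes were called in these fits, with 2497 of all tested genes called in HIF2α-ko against vector without vector replicate 1 and 4283 without the first replicates, where 1286 had been called over all libraries.

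TPM is scaled for gene length, so levels can be set side by side between genes. In these bulk libraries, fewer cells with a transcript and less of it per cell cannot be told apart. In vector, LOXL2 had the highest mean level of the 10 (2287 ± 50.6 TPM, SD, n = 3), followed by LOX (975 ± 162 TPM) and PLOD1 (627 ± 70.9 TPM). LOXL1, P4HA2, PLOD2, LOXL3 and P4HA1 followed at means of 348 to 188 TPM, and each of them overlapped its neighbour in this order over the 3 libraries. LOXL4 did not exceed 0.0692 TPM in any library and P4HA3 lay between 0.137 and 0.475 TPM, so neither passed the filter of 1 TPM in at least 3 libraries, and neither was tested. In HIF1α/2α-ko LOXL2 still led (934 ± 40.3 TPM), while the mean of LOX had moved from second to the sixth place, where its libraries overlapped those of LOXL1 above it and PLOD2 below it.

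**Figure D1:**
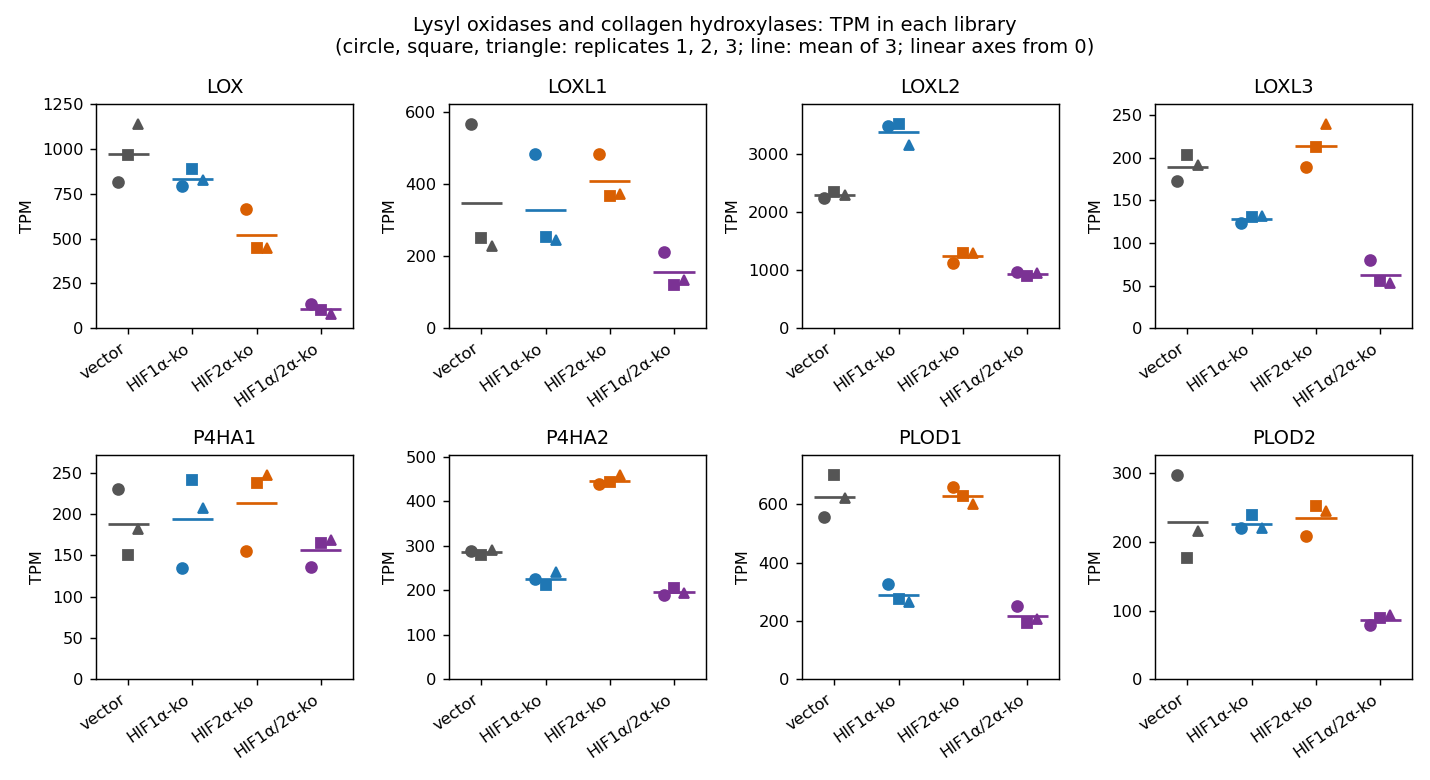
TPM of the 8 tested members (y axis, linear, from 0) in the 4 groups (x axis), with 1 symbol a library and a line at the mean of 3. The HIF1α/2α-ko libraries lie below all vector libraries for every gene shown but P4HA1, LOXL2 is highest in HIF1α-ko (3153 to 3506 TPM), and P4HA2 is highest in HIF2α-ko (438 to 458 TPM).

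Differences between groups were tested with limma on log2(TPM + 1) over 11731 genes, and a gene was called at a Benjamini-Hochberg adjusted p under 0.05. Fold changes below are log2 values on that scale. Of the 8 tested members, 1 was higher and 3 were lower in HIF1α-ko than in vector, where 17.3% of all tested genes were called higher and 8.77% lower. Without vector replicate 3 or HIF1α-ko replicate 2 only 2 of the 4 were called. Calls over all tested genes also fell in these fits, from 26.1% to 14% and 14.4%. In HIF2α-ko 1 was higher and 2 were lower than in vector, against 5.07% and 5.89% of all genes. In HIF1α/2α-ko no member was higher and 7 were lower, against 31.8% and 14.8% of all genes. An unadjusted p under 0.05 gave the same counts of 0 and 7, but the share of all genes at that threshold was not counted. These 3 comparisons share the vector libraries. The choice of the members used these comparisons, so nothing is read from the counts.

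Over all tested genes the median difference from vector was −0.04 for HIF2α-ko, 0.18 for HIF1α-ko and 0.21 for HIF1α/2α-ko. Over the 8 members it was 0.12, −0.12 and −1.33 in the same order, and the 7 members called in HIF1α/2α-ko ran from −0.54 to −3.22. Median ratio scaling removed the shift of all genes, and the calls over all genes then split into 1285 higher and 1545 lower in HIF1α-ko, where they had been 2031 and 1029, and into 2760 higher and 2698 lower in HIF1α/2α-ko, where they had been 3732 and 1741. The direction of no called member turned under this scaling.

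**Figure D2:**
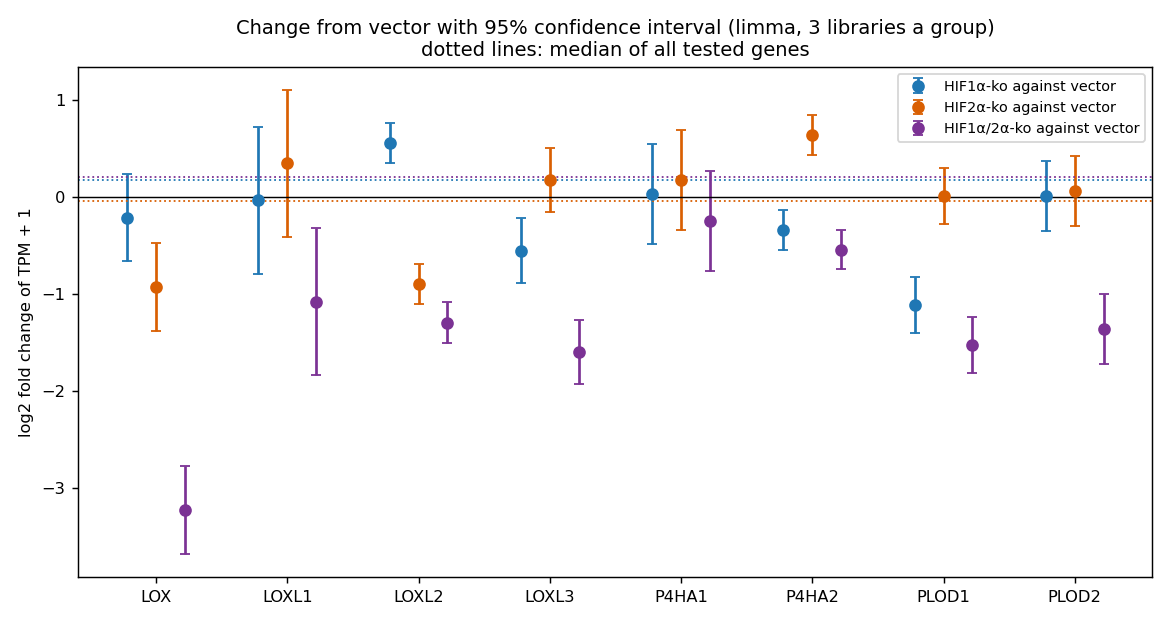
Log2 fold change of TPM + 1 from vector (y axis) for the 8 tested members (x axis) in each knockout, with points for the limma estimate, bars for its 95% confidence interval and dotted lines at the median of all tested genes. LOX is lowest, at −3.22 in HIF1α/2α-ko. LOXL2 and P4HA2 lie on opposite sides of 0 in the single knockouts, in opposite orders.

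LOX, on chromosome 5 (122063195 to 122078360, minus strand), encodes the founding member of the family, a secreted cross-linking enzyme of collagen and elastin. LOX was at 816, 969 and 1139.8 TPM in vector and at 793, 889 and 825 TPM in HIF1α-ko. It was at 663, 446 and 445 TPM in HIF2α-ko and at 135, 103 and 77.4 TPM in HIF1α/2α-ko. The HIF1α-ko libraries overlapped vector, the HIF2α-ko libraries lay below all vector libraries, and the HIF1α/2α-ko libraries lay below every other library. The difference from vector was −0.21 ± 0.21 (SE) with HIF1α lost (adjusted p = 0.471) and −0.92 ± 0.21 with HIF2α lost (adjusted p = 0.0153). In HIF1α/2α-ko it was −3.22 ± 0.21 (adjusted p = 7.89e-07), which ranked 3 from the lowest of all tested genes, at 10.8% of the vector mean. LOX thus fell in HIF2α-ko and fell much further when HIF1α was also lost.

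The HIF2α-ko call of LOX was not firm. Its adjusted p was 0.0504 with median ratio scaling, 0.0765 without vector replicate 3, and 0.0686 and 0.0672 without HIF2α-ko replicate 2 or 3. The difference between the single knockouts, 0.71 higher in HIF1α-ko (adjusted p = 0.0261), was also lost with median ratio scaling (0.46, adjusted p = 0.230) and without replicate 2 or 3 of either group (adjusted p from 0.0687 to 0.0920). The change in HIF1α/2α-ko exceeded the sum of both single changes by −2.09 ± 0.29 (interaction term, adjusted p = 0.00122).

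LOXL2, on chromosome 8 (23297189 to 23425328, minus strand), encodes a lysyl oxidase with scavenger receptor repeats that acts on basement membrane collagen. LOXL2 was at 2238, 2339 and 2285 TPM in vector, at 3469.8, 3506 and 3153 TPM in HIF1α-ko, at 1118, 1284 and 1294 TPM in HIF2α-ko and at 961, 887 and 953 TPM in HIF1α/2α-ko. No pair of groups overlapped. LOXL2 rose in HIF1α-ko by 0.56 ± 0.10 (adjusted p = 0.00202). It fell in HIF2α-ko (−0.90 ± 0.10, adjusted p = 0.000848) and further with both subunits lost (−1.29 ± 0.10, adjusted p = 2.08e-06). The single knockouts, which share no library, differed by 1.46 (adjusted p = 1.58e-06). With median ratio scaling the rise in HIF1α-ko was 0.36 and no longer called (adjusted p = 0.0619). Adding HIF1α loss to HIF2α loss lowered LOXL2 by a further −0.40 (adjusted p = 0.00486), although HIF1α loss alone had gone with a higher level, and the interaction term was −0.96 ± 0.14 (adjusted p = 0.00125).

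LOXL3, on chromosome 2 (74532414 to 74555690, minus strand), encodes a close relative of LOXL2. LOXL3 was at 172, 203 and 192 TPM in vector, 124, 130.1 and 132 TPM in HIF1α-ko, 189.8, 213 and 239.6 TPM in HIF2α-ko and 79.5, 55.9 and 53.3 TPM in HIF1α/2α-ko. The HIF1α-ko libraries lay below vector and the HIF1α/2α-ko libraries below both, whereas HIF2α-ko overlapped vector. LOXL3 fell by 0.55 ± 0.15 on the log2 scale with HIF1α lost (adjusted p = 0.0208) and by 1.59 ± 0.15 with both subunits lost (adjusted p = 1.09e-05). HIF2α-ko differed from vector by 0.17 (adjusted p = 0.505). The HIF1α-ko call was lost on leaving out vector replicate 2 or 3 (adjusted p = 0.0744 and 0.0646) or HIF1α-ko replicate 2 or 3 (0.0580 and 0.0575). The single knockouts differed, with LOXL3 lower by −0.73 in HIF1α-ko than in HIF2α-ko (adjusted p = 0.00553), and the interaction term was −1.22 ± 0.22 (adjusted p = 0.00333).

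LOXL1, on chromosome 15 (73925989 to 73952137, plus strand), encodes the family member best known for its part in elastic fibres. LOXL1 was at 567, 249.5 and 227 TPM in vector, 485, 254 and 244 TPM in HIF1α-ko, 483, 368 and 373 TPM in HIF2α-ko, and 211, 120.2 and 133 TPM in HIF1α/2α-ko. Replicate 1 was the highest library in each of the 4 groups, and only HIF1α/2α-ko lay apart from vector. LOXL1 fell in HIF1α/2α-ko (−1.08 ± 0.35, adjusted p = 0.0228), and this call was lost without vector replicate 1 (−0.66, adjusted p = 0.0895) and without HIF1α/2α-ko replicate 2 or 3 (adjusted p = 0.0847 and 0.0716). With the first replicate of every group left out, LOXL1 was higher in HIF2α-ko than in vector (0.64, adjusted p = 0.00127), where the value over all libraries was 0.35 (adjusted p = 0.571). The interaction term was −1.39 ± 0.49 (adjusted p = 0.0632), and −1.61 (adjusted p = 0.000145) with those libraries left out. It was also called without vector replicate 1 (adjusted p = 0.00679) and with a replicate block (adjusted p = 0.00268). Interaction calls over all tested genes grew as well, from 20.6% to 43%, 30.4% and 27.6% in these settings in that order.

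LOXL1 in HIF1α-ko and HIF2α-ko differed by −0.38 (adjusted p = 0.430), and with replicate number as a block in the 3 knockout groups this difference was called (adjusted p = 0.0297). LOXL4, on chromosome 10 (98247690 to 98268250, minus strand), encodes the remaining paralog. It was at or near 0 in all groups, with means of 0.0333 TPM in vector, 0.0199 TPM in HIF1α-ko, 0.0445 TPM in HIF2α-ko and 0.00746 TPM in HIF1α/2α-ko.

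The summed TPM of the 5 lysyl oxidases was 3799 ± 41.5 (SD, n = 3) in vector. It was 4668 ± 276 TPM with HIF1α lost, 2372 ± 73.6 TPM with HIF2α lost and 1256 ± 115 TPM with both lost, and no pair of groups overlapped. LOXL2 made up 60.2% ± 1.73 of the sum in vector, and 72.3% ± 1.07, 52.1% ± 5.62 and 74.6% ± 4.70 in the knockouts in that order. LOX made up 25.6% ± 4.07, 17.9% ± 1.45, 21.7% ± 4.57 and 8.32% ± 1.76 in the same order of groups. The family thus kept LOXL2 as its most abundant transcript in all groups, while the share of LOX was lowest with both HIFα subunits lost. The log2 ratio of LOX to LOXL2 within a library, which does not depend on scaling between libraries, was −1.24 ± 0.23 in vector and −3.17 ± 0.40 in HIF1α/2α-ko. These did not overlap, at p = 0.1 in an exact two-sided permutation test, the smallest p that 3 against 3 libraries allow. The ratio also lay lower in HIF1α-ko (−2.01 ± 0.10, exact permutation p = 0.1) but overlapped vector in HIF2α-ko (−1.27 ± 0.45, exact permutation p = 0.8).

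**Figure D3:**
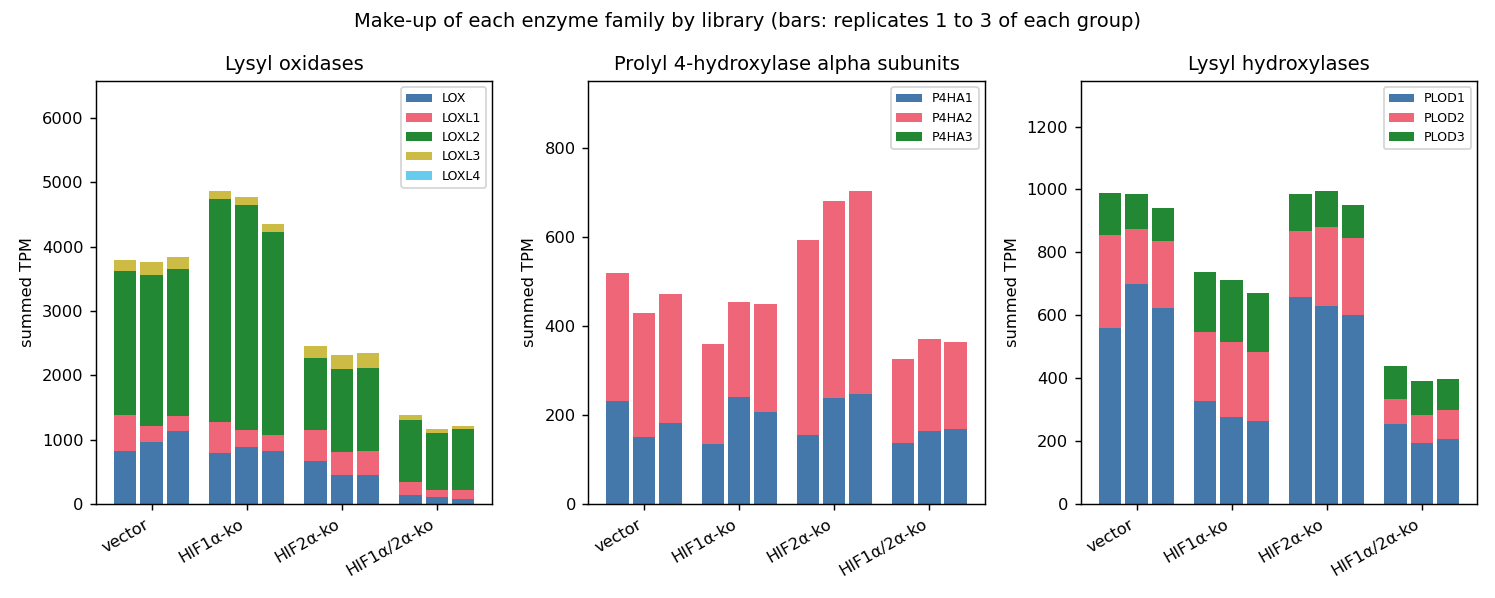
Summed TPM of each enzyme family (y axis, linear, from 0) in each of the 12 libraries (bars, replicates 1 to 3 of each group), split by gene. The lysyl oxidase sum runs from 1166 TPM in HIF1α/2α-ko to 4871 TPM in HIF1α-ko, and LOXL2 is the largest piece in every library. PLOD1 is the piece of the lysyl hydroxylase sum that shrinks in HIF1α-ko.

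Prolyl 4-hydroxylase is a tetramer of 2 alpha subunits, which carry the active site, and 2 beta subunits, the product of P4HB. P4HA2, on chromosome 5 (132191838 to 132295315, minus strand), was the more abundant alpha subunit in vector. It was at 289, 279.6 and 291 TPM in vector, 225, 213 and 241 TPM in HIF1α-ko, 438, 444 and 458 TPM in HIF2α-ko and 189.9, 206 and 195 TPM in HIF1α/2α-ko. No pair of groups overlapped. P4HA2 rose in HIF2α-ko by 0.64 ± 0.09 (adjusted p = 0.00286). It fell in HIF1α-ko (−0.34 ± 0.09, adjusted p = 0.0209) and with both subunits lost (−0.54 ± 0.09, adjusted p = 0.000593). The fall in HIF1α-ko was not called with only the compared groups fitted (adjusted p = 0.0903), without vector replicate 3 (0.0653) or without HIF1α-ko replicate 2 (0.0899).

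The single knockouts differed by −0.98 for P4HA2 (adjusted p = 2.74e-05), in the opposite direction from LOXL2. Adding HIF1α loss to HIF2α loss lowered P4HA2 by −1.18 (adjusted p = 3.31e-06). Adding HIF2α loss to HIF1α loss changed it by −0.20 (adjusted p = 0.133), which was called with the replicate block in the knockout groups (adjusted p = 0.0433) and with quantile normalization (−0.28, adjusted p = 0.0467). By the labels, the higher level of P4HA2 that went with HIF2α loss was therefore seen with HIF1α present and not with HIF1α absent. The interaction term was −0.84 ± 0.13 (adjusted p = 0.00195).

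P4HA1, on chromosome 10 (73007217 to 73096974, minus strand), encodes the other main alpha subunit. P4HA1 was at 231, 151 and 181 TPM in vector, 134, 241 and 208 TPM in HIF1α-ko, 155, 238 and 247 TPM in HIF2α-ko, and 136, 165 and 169 TPM in HIF1α/2α-ko. All groups overlapped, with replicate 1 the highest library in vector and the lowest in each knockout group. The difference from vector was 0.03 (95% interval −0.48 to 0.54) without HIF1α, 0.18 (−0.34 to 0.69) without HIF2α and −0.24 (−0.76 to 0.27) without either, at adjusted p = 0.935, 0.691 and 0.420. These intervals leave room for a change of about the size that P4HA2 showed.

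With the first replicate of every group left out, P4HA1 was called higher in HIF1α-ko (0.43, adjusted p = 0.0124) and in HIF2α-ko (0.55, adjusted p = 0.00783) than in vector, and its interaction term was −0.97 (adjusted p = 0.00257), where it had been −0.45 (adjusted p = 0.364). Calls over all tested genes also grew in that setting, from 26.1% to 55.1% in HIF1α-ko and from 11% to 36.5% in HIF2α-ko. For the interaction term they grew from 20.6% to 43%. HIF1α/2α-ko and HIF2α-ko differed by −0.42 (adjusted p = 0.167), and this was called with the replicate block in the knockout groups (adjusted p = 0.0102), with median ratio scaling (−0.72, adjusted p = 0.00950) and without the first replicates (−0.53, adjusted p = 0.00414). Of all tested genes, 46.4% were called in this comparison, and 62.6%, 44.4% and 60.7% in those settings in that order. P4HA3, on chromosome 11 (74235801 to 74311657, minus strand), encodes the third alpha subunit and had a mean of 0.181 TPM in vector, 0.354 TPM in HIF1α-ko, 0.232 TPM in HIF2α-ko and 0.327 TPM in HIF1α/2α-ko.

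The alpha subunits summed to 474 ± 44.6 TPM in vector, 421 ± 53.2 TPM in HIF1α-ko, 660.1 ± 58.9 TPM in HIF2α-ko and 354 ± 24.1 TPM in HIF1α/2α-ko. P4HA2 made up 60.7% ± 4.75 of the sum in vector and 68.0% ± 5.06 in HIF2α-ko. The log2 ratio of P4HA1 to P4HA2 was −0.63 ± 0.29 in vector and −1.09 ± 0.34 in HIF2α-ko, where the libraries did not overlap (exact permutation p = 0.1). It overlapped vector in HIF1α-ko (−0.26 ± 0.46, exact permutation p = 0.3) and in HIF1α/2α-ko (−0.33 ± 0.14, exact permutation p = 0.2).

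PLOD1, on chromosome 1 (11934205 to 11975538, plus strand), encodes the lysyl hydroxylase that acts on the helical part of collagen. It was at 558, 699.6 and 622 TPM in vector, 327, 276 and 264 TPM in HIF1α-ko, 659.7, 628 and 601 TPM in HIF2α-ko and 253, 193 and 207 TPM in HIF1α/2α-ko. Both groups without HIF1α lay below all libraries with it, and HIF2α-ko overlapped vector. PLOD1 fell by 1.11 ± 0.13 on the log2 scale with HIF1α lost (adjusted p = 0.000313) and by 1.52 ± 0.13 with both subunits lost (adjusted p = 6.00e-06). With HIF2α lost it differed from vector by 0.01 (95% interval −0.28 to 0.30, adjusted p = 0.971).

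The interaction term of PLOD1 was −0.42 ± 0.19 (adjusted p = 0.131), and without HIF1α/2α-ko replicate 1 it was −0.53 (adjusted p = 0.0489). HIF1α/2α-ko lay below HIF1α-ko by −0.41 (adjusted p = 0.0359). This small difference was lost with median ratio scaling (adjusted p = 0.0935), without a mean-variance trend (0.0598), with only the compared groups fitted (0.0601) and without any of 6 single libraries, among them HIF1α-ko replicate 1 (0.129) and HIF1α/2α-ko replicates 2 and 3 (0.139 and 0.109).

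PLOD2, on chromosome 3 (146069440 to 146163653, minus strand), encodes the lysyl hydroxylase of collagen telopeptides, whose product directs the pattern of cross-links. PLOD2 was at 296, 176 and 215 TPM in vector, 220.2, 239 and 219 TPM in HIF1α-ko, 208, 252 and 245 TPM in HIF2α-ko and 78.9, 89.0 and 92.9 TPM in HIF1α/2α-ko. Both single knockouts lay within the range of vector, and HIF1α/2α-ko lay below every other library. The difference from vector was 0.01 (95% interval −0.35 to 0.37, adjusted p = 0.962) in HIF1α-ko and 0.06 (−0.30 to 0.42, adjusted p = 0.856) in HIF2α-ko. PLOD2 fell by 1.36 ± 0.17 on the log2 scale in HIF1α/2α-ko (adjusted p = 4.96e-05), to 37.9% of the vector mean, and the interaction term was −1.43 ± 0.23 (adjusted p = 0.00233). Without the first replicates, HIF2α-ko was called higher than vector (0.35, adjusted p = 0.0358).

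The log2 ratio of PLOD2 to PLOD1 was −1.47 ± 0.54 in vector and −0.35 ± 0.19 in HIF1α-ko, while HIF2α-ko had −1.42 ± 0.21 and HIF1α/2α-ko −1.31 ± 0.31. It was higher in every HIF1α-ko library than in any vector library (difference 1.12, exact permutation p = 0.1, the smallest possible), and overlapped vector in the other groups (exact permutation p = 1.0 and 0.7). The 3 lysyl hydroxylases, with PLOD3 counted in, summed to 971 ± 27.6 TPM in vector, 708 ± 33.3 TPM in HIF1α-ko, 977 ± 23.0 TPM in HIF2α-ko and 408 ± 26.4 TPM in HIF1α/2α-ko. PLOD1 made up 64.6% ± 7.44 of the sum in vector and 40.8% ± 3.07 in HIF1α-ko. PLOD3, which also glycosylates hydroxylysine, made up 11.9% ± 1.55 and 27.2% ± 1.21 in these groups and had risen in HIF1α-ko (0.74 ± 0.12, adjusted p = 0.00158).

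The knockouts were also set against each other, where the vector libraries enter only through the shared estimate of the spread. Between HIF1α-ko and HIF2α-ko, LOX and LOXL2 were higher in HIF1α-ko and LOXL3, P4HA2 and PLOD1 were lower, that is 2 and 3 of 8 members, against 17.8% and 7.37% of all tested genes. In HIF1α/2α-ko against HIF1α-ko, 6 of 8 were lower and 0 higher, against 10.6% and 17.7% of all genes. In HIF1α/2α-ko against HIF2α-ko, 7 of 8 were lower and 0 higher, against 12.9% and 33.5%. LOXL1 was among the former 6 (−1.05, adjusted p = 0.0406), and the call was lost without filter (adjusted p = 0.0786), with median ratio scaling (0.0520) or without any of 6 single libraries, among them HIF1α-ko replicate 1 (0.156). LOX showed the largest difference of the 8 in both comparisons (−3.01 and −2.30).

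The interaction term compares the change in HIF1α/2α-ko with the sum of the single knockout changes on the log2 scale. It was called below 0 for 5 of 8 members, LOX, LOXL2, LOXL3, P4HA2 and PLOD2, and above 0 for none, against 7.35% and 13.2% of all tested genes. At an unadjusted p under 0.05 it was below 0 for 7 and above 0 for 0 members. The share of all tested genes at that threshold was not counted. Among these genes the forms differed. PLOD2 was near vector in both single knockouts, LOX was lower in 1 of them, and LOXL2, LOXL3 and P4HA2 had single changes of opposite sign, of which that of LOXL3 in HIF2α-ko was not called. For all 8 members the estimate was below 0, from −0.42 to −2.09.

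**Figure D4:**
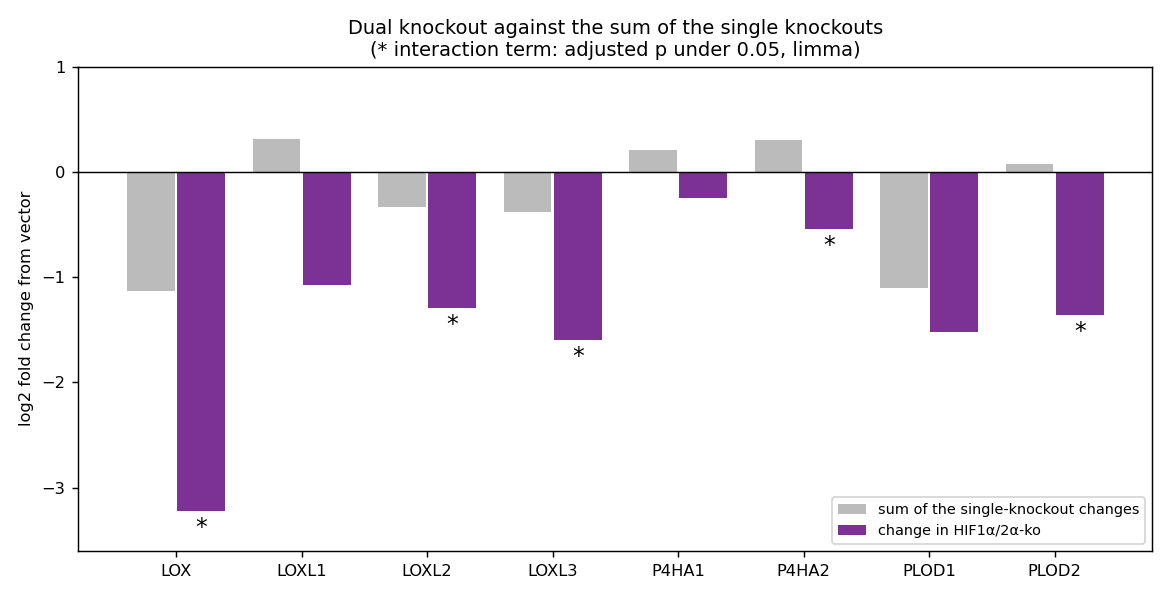
Log2 fold change from vector (y axis) for the 8 tested members (x axis), with grey bars for the sum of the changes in HIF1α-ko and HIF2α-ko and purple bars for the change in HIF1α/2α-ko, and a star where the limma interaction term passed an adjusted p of 0.05. The purple bar lies below the grey bar for every member, and the gap is widest for LOX, at −2.09.

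The members work with other proteins. Lists of such genes and a list of reference targets of the HIFs were counted, 5 lists in all. Of 12 tested collagen-folding and modifying partners in the endoplasmic reticulum, 7 were higher and 0 lower with HIF1α lost (median 0.71 against vector), 1 was higher and 1 lower with HIF2α lost (0.21), and 3 were higher and 3 lower with both lost (0.26). P4HB, the beta subunit that P4HA1 and P4HA2 need, was at 1908 ± 102 TPM in vector and fell in HIF1α/2α-ko (−0.71 ± 0.09, adjusted p = 9.10e-05). SERPINH1, the collagen chaperone HSP47, rose with HIF1α lost (0.83, adjusted p = 0.0174) and with both lost (1.05, adjusted p = 0.00198). P3H2, a prolyl 3-hydroxylase, fell in HIF1α/2α-ko (−1.34, adjusted p = 3.47e-05), while P3H4 differed by 1.02 (adjusted p = 0.0850). P3H4 was at 20.1, 4.04 and 3.76 TPM in vector, and without vector replicate 1 it was called at 1.73 (adjusted p = 0.000295). The counts for this list grew without that library, to 8 higher and 0 lower, 5 and 1, and 7 and 3 in the same order of groups. The higher calls over all tested genes grew too, from 17.3% to 24.1% with HIF1α lost, from 5.07% to 11.1% with HIF2α lost and from 31.8% to 33.0% with both lost. The lower calls over all tested genes grew from 8.77% to 11.6%, from 5.89% to 10.2% and from 14.8% to 15.3% in the same order.

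Of 8 tested genes of procollagen processing and export, 2 were higher with HIF1α lost, 0 were called by limma with HIF2α lost (1 was lower at an unadjusted p under 0.05), and 3 were higher and 2 lower with both lost (medians 0.46, −0.09 and 0.28). Of all tested genes, 17.3% were called higher and 8.77% lower with HIF1α lost. The shares were 5.07% and 5.89% with HIF2α lost, and 31.8% and 14.8% with both lost. The share at an unadjusted p under 0.05 was not counted. Without vector replicate 1 the list had 4 higher and 0 lower, 1 and 0, and 2 and 2, while the shares of all genes grew as given for the folding partners. PCOLCE, an enhancer of procollagen C-proteinase, fell in HIF1α/2α-ko (−1.03, adjusted p = 0.00195). The risers ADAMTS14 (1.32) and MIA2 (1.76) had low levels, with means of 1.82 and 4.88 TPM in HIF1α/2α-ko.

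Of 8 tested copper supply and matrix partners of the lysyl oxidases, 1 was higher and 2 lower with HIF1α lost, 0 and 1 with HIF2α lost and 2 and 6 with both lost (medians 0.06, −0.32 and −0.75). The shares of all tested genes were 17.3% higher and 8.77% lower, 5.07% and 5.89%, and 31.8% and 14.8% in the same order of groups. Without vector replicate 1 the counts of the list were 3 and 2, 2 and 3, and 2 and 6, while the shares of all genes grew as given for the folding partners. SLC31A1, the copper importer CTR1, rose in HIF1α/2α-ko from 6.28 ± 2.70 to 23.1 ± 2.46 TPM (1.78, adjusted p = 7.64e-05). EFEMP2, a matrix protein that binds pro-LOX, fell (−1.21, adjusted p = 1.54e-05), as did FN1, fibronectin (−1.63, adjusted p = 0.00464). FN1 was at 169, 586 and 629 TPM in vector, so vector replicate 1 lay far below the other vector libraries, and without it the change was −2.24 (adjusted p = 1.09e-05).

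Of 10 tested collagen and elastin genes, 3 were higher and 1 lower with HIF1α lost, 0 were called by limma with HIF2α lost (1 higher and 1 lower at an unadjusted p under 0.05), and 0 were higher and 6 lower with both lost (medians 0.09, −0.05 and −0.71). The shares of all tested genes were 17.3% higher and 8.77% lower, 5.07% and 5.89%, and 31.8% and 14.8% in the same order of groups. The share at an unadjusted p under 0.05 was not counted. Without vector replicate 1 the counts of the list were 3 and 1, 1 and 0, and 0 and 6, while the shares of all genes grew as given for the folding partners. COL1A1, the alpha 1 chain of collagen I, was at 21.0 ± 5.23 TPM in vector and 6.65 ± 1.09 TPM in HIF1α/2α-ko (−1.51, adjusted p = 6.68e-05). COL6A3 of collagen VI rose in HIF1α-ko (1.06, adjusted p = 0.00495) and fell with both subunits lost (−0.99, adjusted p = 0.00270), as LOXL2 did. It was at 953, 510 and 518 TPM in vector. Without vector replicate 1 the changes were 1.36 (adjusted p = 0.000118) and −0.70 (adjusted p = 0.00321). ELN, elastin, was low (3.94 ± 0.21 TPM in vector) and fell in HIF1α/2α-ko (−1.02, adjusted p = 0.000163).

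Of 10 reference targets of the HIFs, 0 were higher and 6 lower with HIF1α lost, 1 and 0 with HIF2α lost and 0 and 7 with both lost (medians −0.83, 0.07 and −1.31). The shares of all tested genes were 17.3% higher and 8.77% lower, 5.07% and 5.89%, and 31.8% and 14.8% in the same order of groups. CA9, a carbonic anhydrase, fell both in HIF1α-ko (−1.85, adjusted p = 9.58e-05) and with both subunits lost (−2.45, adjusted p = 1.52e-06). BNIP3, a mitophagy receptor, fell by 3.76 on the log2 scale with HIF1α lost (adjusted p = 1.97e-06) and by 2.83 with both lost (adjusted p = 1.56e-06), the knockouts in which PLOD1 was also lower. EGLN3, a HIF prolyl hydroxylase, fell with both subunits lost (−1.98, adjusted p = 0.00114) and was at 1.05 in HIF1α-ko (adjusted p = 0.0598), where it was called without vector replicate 1 (1.497, adjusted p = 0.00542). Without vector replicate 1 the counts of the list were 1 higher and 7 lower, 2 and 1, and 0 and 9, while the shares of all genes grew as given for the folding partners.

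**Figure D5:**
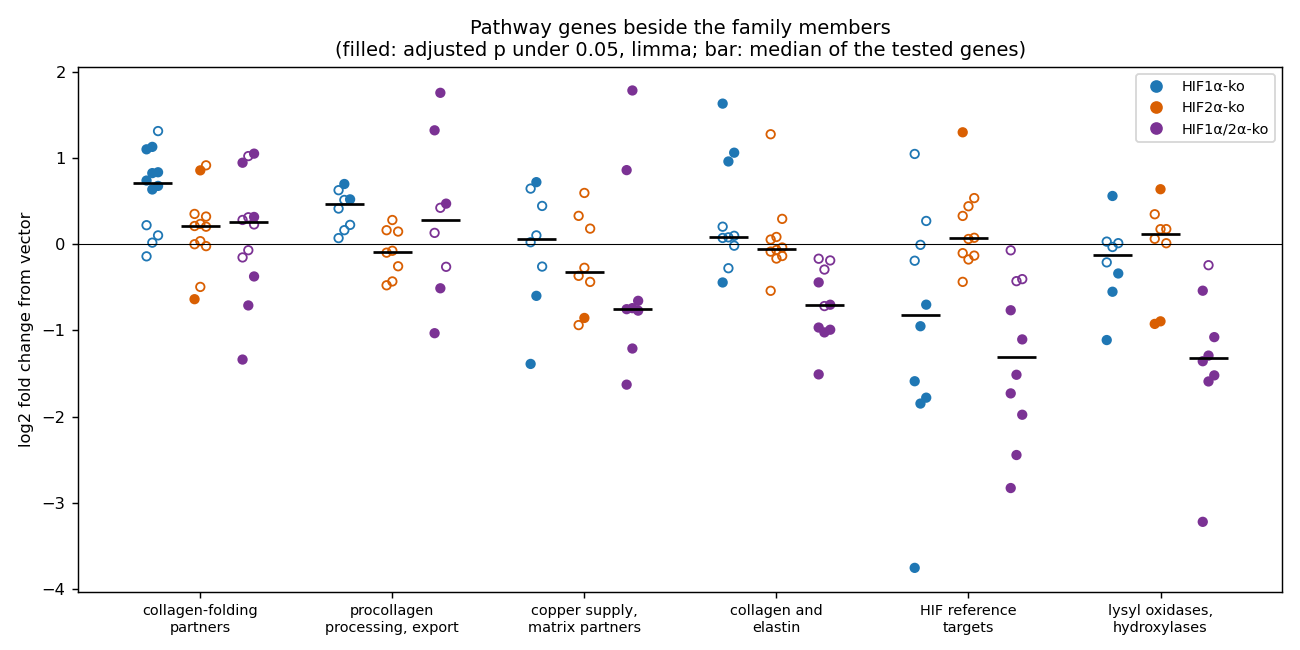
Log2 fold change from vector (y axis) of the tested genes of 5 pathway lists and of the 8 tested members (x axis), with 1 point a gene, colour for the knockout, filled points for an adjusted p under 0.05 and black bars for list medians. In HIF1α/2α-ko the collagen and elastin list has its median at −0.71 and the HIF reference targets at −1.31, while the folding partners have theirs at 0.26.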

How the data were processed

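The table held TPM values, which the authors made and deposited for 12 mRNA libraries. According to the submitters' processing notes, FastQC 0.11.2, Trimmomatic 0.36, HISAT2 2.0, bedtools 2.26.0 and the build GRCh38 were used. The counter, annotation and strand setting are not given in the sources used here, and TPM keeps no depth, so the depth of each library is unknown and no counting interval is given. Column sums ran from 999955 to 999982. Symbols were matched for 20148 of 20263 gene identifiers, and 3382 genes were at 0 in every library. Columns were assigned to groups by the knockout code in their names, and the 3 whose names hold none were assigned to vector. LOX, LOXL3, P4HA2 and P4HA3 overlap protein-coding genes on the opposite strand, and LOXL2 overlaps ENTPD4 on the same strand. LOXL1, LOXL4, P4HA1 and PLOD2 overlap antisense genes that are not among the genes of the expression table. Reads shared between overlapping genes cannot be told apart.

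The members and the 5 gene lists were chosen with earlier results of these data known. Genes at 1 TPM or more in at least 3 libraries were tested with limma 3.58.1 (R 4.3.3) with a mean-variance trend on log2(TPM + 1), all 4 groups in 1 model, with Benjamini-Hochberg adjustment within each comparison. The pseudocount of 1 understates changes of low genes. The script was tested on simulated data. Paralog ratios within a library were compared by exact two-sided permutation tests. The genes named were the members, HIF1A, EPAS1, P4HB, PLOD3, the 3 tested genes of each list with the largest change in HIF1α/2α-ko against vector, and the genes most alike LOX, P4HA1 and LOXL2. Same-numbered knockout libraries deviated together from their group means (r = 0.196 to 0.508 across genes). Between vector and knockout libraries r was lower (−0.0265 to 0.163), and it was highest for replicate 1 of vector and HIF1α-ko. Libraries of unlike number were not compared in this way, and replicate 1 stood apart in every group. These values therefore cannot show whether same-numbered libraries were paired, and no source states a pairing. Alternatives were a pseudocount of 0.1, other filters, median ratio scaling, quantile normalization, no trend, separate fits, replicate blocks and leaving out libraries. Promoter windows came from RefSeq (GRCh38.p14) and untranslated exons from GENCODE.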

Additional observations from a re-analysis of the deposited data

Results flagged for a closer look

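For 5 members the limma interaction term over all 12 libraries was called below 0. Of all tested genes, 7.35% were called below 0 and 13.2% above it. HIF1A mRNA itself had a called term, of 1.15 (adjusted p = 0.0131). With both subunits lost its level exceeded that with only HIF1α lost, by 0.64 on the log2 scale (limma adjusted p = 0.0287). Presence or absence of a subunit is therefore read from the labels here. Among the members the term was −2.09 for LOX (adjusted p = 0.00122), −1.43 for PLOD2 (adjusted p = 0.00233), −1.22 for LOXL3 (adjusted p = 0.00333), −0.96 for LOXL2 (adjusted p = 0.00125) and −0.84 for P4HA2 (adjusted p = 0.00195), each on the log2 scale. A negative term means that the level with both subunits lost was lower than the single changes add up to. The values of LOXL2 and P4HA2 in the single knockouts went in opposite directions from vector and from each other, so HIF2α loss went with a change of −0.90 for LOXL2 in the presence of HIF1α and of −1.85 in its absence, and with one of 0.64 and −0.20 for P4HA2.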

How the results depend on the processing

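Of 37 called values among 56 tests of members, 29 kept their direction and call under every alternative run. Of 1192 alternative values, 1116 kept direction and side of the threshold, 37 lost the call, 19 gained it and 20 turned direction, none of these past the threshold or called over all libraries. The number of called members in HIF1α-ko against vector, 4, was 2 to 4 with single libraries left out. Calls over all tested genes then ran from 13.2% to 35.8%, where they had been 26.1%. The number of called members in HIF2α-ko against vector, 3, was 6 with the first replicate of every group left out. In that setting calls over all tested genes also grew, from 1286 to 4283. The cause was not tested.

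The values that turned were small. LOXL1 in HIF1α-ko against vector (−0.03) was 0.064 without the first replicates and −0.35 to 0.38 with single libraries left out. In the same comparison P4HA1 (0.03) was −0.17 with median ratio scaling and −0.14 to 0.27 with single libraries left out, and PLOD2 (0.01) was −0.18 with median ratio scaling, −0.039 with quantile normalization and −0.16 to 0.21 with single libraries left out. In HIF2α-ko against vector PLOD1 (0.01) was −0.10 without the first replicates and −0.069 to 0.094 with single libraries left out, where PLOD2 (0.06) was −0.11 to 0.26. P4HA1 in HIF1α/2α-ko against vector (−0.24) was 0.013 without the first replicates. Between the single knockouts, P4HA1 (−0.15) was −0.36 to 0.098 and PLOD2 (−0.05) was −0.14 to 0.0031 with single libraries left out.

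With replicate number as a block over all groups, 7 members were called in HIF1α/2α-ko against vector and 6 interaction terms. Calls over all tested genes grew there from 46.7% to 52.6% and from 20.6% to 27.6%. With the replicate block in the knockout groups only, 6, 7 and 8 members were called between the single knockouts and in HIF1α/2α-ko against HIF1α-ko and HIF2α-ko, where 5, 6 and 7 had been called, and LOXL1, P4HA2 and P4HA1 were the genes gained. Calls over all tested genes grew with this block from 25.1%, 28.3% and 46.4% to 50.5%, 48.5% and 62.6%. The block changed no other call among the knockouts. Depth is unknown, so the low values of LOXL4 and P4HA3 have no stated precision.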

Other observations

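The genes whose log2 levels followed LOX most closely over the 12 libraries, among 8011 genes at a mean of at least 5 TPM, were MATN2 (Pearson's r = 0.982), APBB1 (0.980), MT1F (0.965), SYNPO (0.965) and ARTN (0.962). For LOXL2 they were KLHL38 (0.985), LXN (0.981), MCHR1 (0.978), SIRPA (0.978) and TGFBI (0.976). For P4HA1, which passed the test in no comparison, they were NRAS (0.921), AGBL1 (0.894), FOXL1 (0.889), UFC1 (0.886) and MKLN1 (0.879). These values describe likeness over 12 points that share 4 groups, and they say nothing of shared function or control.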
